A study of Mus musculus with 8 samples.

Results

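The MYC, MAX and MXD network was followed in bone marrow-derived macrophages (BMDMs) through the mRNAs of its 10 members, Myc, Mycl, Mycn, Max, Mxd1, Mxd3, Mxd4, Mxi1, Mnt and Mlx. The members were chosen by name, as the genes whose identifiers carry these symbols in the mouse GENCODE annotation, and all 10 were found among the 55359 listed genes. MYC, MYCL and MYCN activate transcription only as heterodimers with MAX, a small basic helix-loop-helix leucine zipper protein, and these dimers bind the E-box. The MXD proteins, MXI1 (also called MXD2) and MNT compete for MAX and for the same E-boxes but recruit SIN3 and histone deacetylase corepressors, so that the relative amounts of the partners set whether shared targets are driven or silenced. MLX is a MAX-like protein that pairs with the glucose-responsive MONDO factors and with some MXD proteins. In myeloid cells, MYC is known from proliferating precursors and from alternatively activated Mϕ, and MXD1 from terminal differentiation.

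Total RNA was sequenced from wildtype C57BL/6 BMDMs in 4 groups of 2 samples: naïve unstimulated (Ctrl), naïve stimulated (LPS), efferocytic unstimulated (Eff) and efferocytic stimulated (LPSEff). All cells came from femoral marrow of adult mice of either sex and were grown in M-CSF and GM-CSF, each at 20 ng/mL. Efferocytic Mϕ had received apoptotic NIH-3T3 CA fibroblasts, a mouse line of a single clone that carries a dimerizer-activated caspase, at 5 cells per Mϕ for 16 h with 10 nM dimerizer. For the sequenced naïve samples no dimerizer is named in the sources used here, and if they had none, its effect and that of apoptotic cells cannot be told apart. Stimulation was 100 ng/mL LPS with 100 U/mL IFNγ for 6 h after washing, so that neither agent can be separated from the other. CD45+ cells were then enriched on magnetic beads. The sources do not say whether the 2 samples of a group came from separate mice or cultures, so that p-values measure only the spread between these samples, which may be technical. Because each sample is a bulk of cells, fewer cells of a type and less RNA per cell cannot be told apart.

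Values are normalized counts, which are read counts that the authors scaled for depth with 1 factor per sample. The samples held 3481288 to 12020918 reads, and Ctrl replicate 1 was the shallowest. At this depth 3 reads correspond to 1.73 to 5.71 normalized counts, a floor that covers counting error only. All 10 Mϕ markers were above 3 reads in every sample. The summed normalized counts of 12 fibroblast markers were 164 and 357 in Ctrl, 926 and 936 in LPS, and, among efferocytic Mϕ, 1450.3 and 2808 in Eff and 4526 and 4238 in LPSEff. Thus the marker sum was highest in the groups that had received NIH-3T3 cells, although CD45+ cells had been enriched. It was also higher in LPS than in Ctrl, where neither group had received them. There 3 of the 11 tested markers were called as higher, 27.3% of them, where 12.4% of all genes passed as higher. In group means Pdgfrb went from 13.4 to 245, Fbn1 from 11.7 to 144 and Col5a1 from 145 to 357 normalized counts. The 7 dendritic cell markers summed to 3144 and 3777 in Ctrl and 8748 and 17481 in LPS. The Eff samples stood at 2043 and 2538 and the LPSEff samples at 7031 and 7153. Lymphocyte markers were at a sum of 33.6 or less in every sample.

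The 5 members that moved on stimulation lie at chr15:61857227-61862223 (Myc), chr12:76984043-77009009 (Max), chr6:86624024-86646218 (Mxd1), chr5:34331227-34345240 (Mxd4) and chr19:53298852-53364241 (Mxi1), each a protein-coding gene on GRCm39 with reads summed over its exons. The 250 bases before the start of each member's representative transcript (GENCODE) were searched on both strands for the E-box CACGTG. Windows were taken for the 9 members whose mean reached 10 normalized counts, and 4 of these windows held an E-box, compared with 7.83% of the 12498 windows of all expressed protein-coding genes. In Max, Mxd4 and Mlx it lay within 33 bases of the start, at positions -25 to -20, -33 to -28 and -16 to -11. In Mxd3 it lay at -223 to -218, in exons of other annotated transcripts, and that window is not printed. The windows of Max (minus strand, chr12:77009001-77009250), Mxd4 (minus strand, chr5:34345241-34345490) and Mlx (plus strand, chr11:100977842-100978091) are printed 5′ to 3′ on the gene's strand because they hold the motif, with the E-box in capitals. Those of Myc (plus strand, chr15:61856977-61857226) and Mxd1 (minus strand, chr6:86646219-86646410) are printed because these mRNAs moved most on stimulation, and they hold no E-box. The Mxd1 window ends at -59, where annotated exons begin.
Max: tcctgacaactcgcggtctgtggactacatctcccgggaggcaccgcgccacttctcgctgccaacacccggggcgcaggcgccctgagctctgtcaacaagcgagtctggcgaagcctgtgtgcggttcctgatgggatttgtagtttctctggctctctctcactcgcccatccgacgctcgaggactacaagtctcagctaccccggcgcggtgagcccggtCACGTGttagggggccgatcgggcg
Mxd4: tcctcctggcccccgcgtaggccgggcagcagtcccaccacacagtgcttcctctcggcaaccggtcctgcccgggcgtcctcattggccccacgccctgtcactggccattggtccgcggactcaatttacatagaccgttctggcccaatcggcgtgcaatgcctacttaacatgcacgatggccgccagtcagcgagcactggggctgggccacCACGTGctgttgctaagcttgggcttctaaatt
Mlx: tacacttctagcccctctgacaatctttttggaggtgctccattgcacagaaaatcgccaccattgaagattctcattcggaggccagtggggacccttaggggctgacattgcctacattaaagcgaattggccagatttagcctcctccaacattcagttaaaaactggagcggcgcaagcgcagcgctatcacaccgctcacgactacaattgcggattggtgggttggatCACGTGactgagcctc
Myc: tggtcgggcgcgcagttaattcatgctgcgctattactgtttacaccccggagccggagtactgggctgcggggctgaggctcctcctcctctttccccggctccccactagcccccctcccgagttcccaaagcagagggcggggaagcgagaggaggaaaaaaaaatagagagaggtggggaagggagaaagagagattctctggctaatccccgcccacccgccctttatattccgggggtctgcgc
Mxd1: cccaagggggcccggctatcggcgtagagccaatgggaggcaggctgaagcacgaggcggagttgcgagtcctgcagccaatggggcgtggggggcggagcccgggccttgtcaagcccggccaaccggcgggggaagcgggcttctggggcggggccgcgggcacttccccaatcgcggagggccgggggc
The same windows were searched for motifs of factors that act in stimulated Mϕ, namely the interferon-gamma activated site TTCNNNGAA, the interferon-stimulated response element (GAAA, any 2 bases, GAAA), the cAMP response element TGACGTCA and the NF-kB consensus. No member window held any of them, while 6.71%, 3.19%, 2.07% and 4.56% of all windows did. A match is a description of letters and not a bound site, and a missing match says only that these letters are not in this window.

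LPS/IFNγ moved 5 of the 9 members that could be tested in naïve Mϕ: Mxd1, Mxi1 and Max rose, and Myc and Mxd4 fell. Across all 16309 tested genes, 24.0% passed the same threshold of an adjusted p of 0.05 (limma), 12.4% as higher and 11.6% as lower. Efferocytic Mϕ showed the same 5 calls in the same directions, where 19.7% of all genes passed, 10.7% as higher and 8.95% as lower. The values of each member follow by role. Whether 2 groups of 2 samples overlap is given as a description only, because without any difference they separate with probability 0.333. The share of all genes that separated was not counted.

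Myc, the activator that gives the network its name, had normalized counts of 543 and 412 in Ctrl, 86.7 and 93.4 in LPS, and, among efferocytic Mϕ, 827 and 406 in Eff and 101 and 147 in LPSEff. Stimulated and unstimulated groups did not overlap, whereas Eff overlapped Ctrl because Eff replicate 1 was high and Eff replicate 2 low. Myc fell 5.30-fold in naïve Mϕ, a log2 fold change of -2.38 (SE 0.35, limma adjusted p = 0.00222), and 4.96-fold in efferocytic Mϕ (-2.24, SE 0.35, limma adjusted p = 0.0035). The long noncoding RNA Pvt1, transcribed next to Myc, fell by 1.64 on the log2 scale in naïve Mϕ (SE 0.36, limma adjusted p = 0.0128), and its difference in efferocytic Mϕ was -0.93 (limma adjusted p = 0.112, and 0.0387 with the replicate block).

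Mycl, the family member known from dendritic cells, had 89.5 and 145 normalized counts in Ctrl and 128 and 311 in LPS. Eff samples lay at 52.6 and 69.2 and the LPSEff samples at 35.6 and 124. LPS replicate 2 was the highest sample, and LPS and Ctrl overlapped. The log2 difference was 0.81 (SE 0.61, limma adjusted p = 0.397) in naïve and 0.14 (SE 0.61, limma adjusted p = 0.905) in efferocytic Mϕ. The dendritic marker sum given above was also highest in LPS replicate 2, and the part of these markers in the Mycl values was not tested. In LPS most of that sum was Ccr7 (mean 1984 normalized counts in Ctrl and 11030 in LPS). On stimulation of naïve Mϕ 5 of the 6 tested dendritic markers lay above 0. Kit lay below (log2 fold change -1.86, limma adjusted p = 0.0018). Mycn, best known from neural development, stood at 1 to 10 reads in every sample (mean 4.60 normalized counts) and was too low to test.

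Max, the obligate partner of MYC and of the repressors, had 388 and 365 normalized counts in Ctrl, 594 and 790.1 in LPS, and, among efferocytic Mϕ, 334 and 368 in Eff and 699 and 655 in LPSEff. The 4 stimulated samples all lay above the 4 unstimulated samples. Max rose 1.84-fold in naïve Mϕ (log2 fold change 0.86, SE 0.20, limma adjusted p = 0.0151) and 1.93-fold in efferocytic Mϕ (0.95, SE 0.20, limma adjusted p = 0.0116). This was the least firm of the 5 calls, because rescaling all samples to equal totals moved the median gene by -0.40 and -0.45 in these comparisons and took Max to 0.46 (limma adjusted p = 0.068) and 0.50 (limma adjusted p = 0.0535). Its naïve call was also lost when only LPS and Ctrl were fitted (limma adjusted p = 0.0524), and it was lost without Ctrl replicate 1 (limma adjusted p = 0.0648), Ctrl replicate 2 (0.0833) or LPS replicate 2 (0.0705) in naïve Mϕ, and without Eff replicate 1 (0.0832) or LPSEff replicate 1 (0.0745) in efferocytic Mϕ. The ratio of Max to Mlx counts within a sample, which depends on no scaling, was 0.962 and 1.01 in Ctrl and 1.79 and 2.64 in LPS. Values were 0.797 and 1.01 in Eff samples and 1.81 and 1.88 in LPSEff samples.

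Mxd1, the MXD repressor linked to myeloid differentiation, had 729 and 926 normalized counts in Ctrl, 6680.3 and 8819.7 in LPS, and, among efferocytic Mϕ, 450.4 and 415 in Eff and 5148 and 4442 in LPSEff. None of the 4 groups overlapped another, and the order was LPS, LPSEff, Ctrl, Eff. Mxd1 rose 9.37-fold in naïve Mϕ (log2 fold change 3.22, SE 0.21, limma adjusted p = 6e-05) and 11.1-fold in efferocytic Mϕ (3.46, SE 0.21, limma adjusted p = 3.56e-05). No other member changed by as much in either comparison.

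Mxi1, a second repressor of the same type, had 124 and 93.7 normalized counts in Ctrl and 380.3 and 247 in LPS. The Eff samples stood at 108 and 146 and the LPSEff samples at 394 and 358. It rose 2.88-fold in naïve Mϕ (log2 fold change 1.50, SE 0.28, limma adjusted p = 0.00662) and 2.96-fold in efferocytic Mϕ (1.57, SE 0.28, limma adjusted p = 0.00626). Here too every stimulated sample lay above every unstimulated sample.

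Mxd4, a repressor of resting and differentiated cells, moved the other way, with 508 and 615 normalized counts in Ctrl, 232 and 246 in LPS, and, among efferocytic Mϕ, 312 and 486 in Eff and 135 and 159 in LPSEff. It fell 2.35-fold in naïve Mϕ (log2 fold change -1.23, SE 0.25, limma adjusted p = 0.00938) and 2.72-fold in efferocytic Mϕ (-1.41, SE 0.25, limma adjusted p = 0.00605). LPS and Eff did not overlap either, and LPSEff was the lowest group. Without Ctrl replicate 2 the naïve call of Mxd4 (limma adjusted p = 0.0688), that of Mxi1 (0.0504) and that of Max were lost, which left 2 members called, while the share of all genes called dropped to 13.7%.

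Mxd3, an MXD protein of proliferating cells, had 51.4 and 97.7 normalized counts in Ctrl and 12.9 and 32.5 in LPS. Eff samples lay at 33.3 and 81.9 and the LPSEff samples at 28.5 and 41.9. Ctrl and LPS did not overlap, but the log2 difference of -1.74 (SE 0.59) did not pass (limma adjusted p = 0.0662), and that in efferocytic Mϕ was -0.58 (SE 0.59, limma adjusted p = 0.552). DESeq2 called the naïve difference (DESeq2 adjusted p = 0.0347) and edgeR did not (edgeR adjusted p = 0.0655). With the replicate number as a block, which uses the fact that Mxd3 was lower in replicate 1 in all 4 groups, the naïve difference passed (limma adjusted p = 0.000886). Of its exonic bases, 31.7% overlap Prelid1 on the opposite strand, where htseq-count in its default mode counts by strand.

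Mnt, the repressor made in most cell types, had 265 and 204 normalized counts in Ctrl, 167 and 134 in LPS, and, among efferocytic Mϕ, 258 and 219 in Eff and 222 and 212 in LPSEff. The 2 LPS samples were the lowest of all 8. The log2 difference was -0.63 (SE 0.22, limma adjusted p = 0.0782) in naïve Mϕ, which passed with the replicate block (limma adjusted p = 0.00996), and -0.13 (SE 0.22, limma adjusted p = 0.754) in efferocytic Mϕ.

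Mlx, the partner of the MONDO arm, had 404 and 360.3 normalized counts in Ctrl and 332 and 299.6 in LPS. Its Eff samples held 419 and 366 and its LPSEff samples 386 and 348, the narrowest range of the tested members on the log2 scale. Its log2 differences were -0.27 (95% interval -0.70 to 0.15) in naïve and -0.10 (95% interval -0.52 to 0.33) in efferocytic Mϕ, neither of which passed (limma adjusted p = 0.338 and 0.778). Rescaled to equal totals, the naïve differences of Mxd3 (-2.13), Mnt (-1.03) and Mlx (-0.67) passed as lower, when 2 members passed as higher and 5 as lower in all and the split over all genes went from 2015 higher and 1895 lower to 1420 higher and 4315 lower. In efferocytic Mϕ this scaling took the split over all genes from 1753 higher and 1460 lower to 1216 higher and 4362 lower. Of Mlx exonic bases, 51.9% overlap Psmc3ip on the opposite strand. The blocked design called 7 members in naïve Mϕ, where 41.2% of all genes passed, and the same 5 in efferocytic Mϕ, where 37.0% passed.

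**Figure D1:**
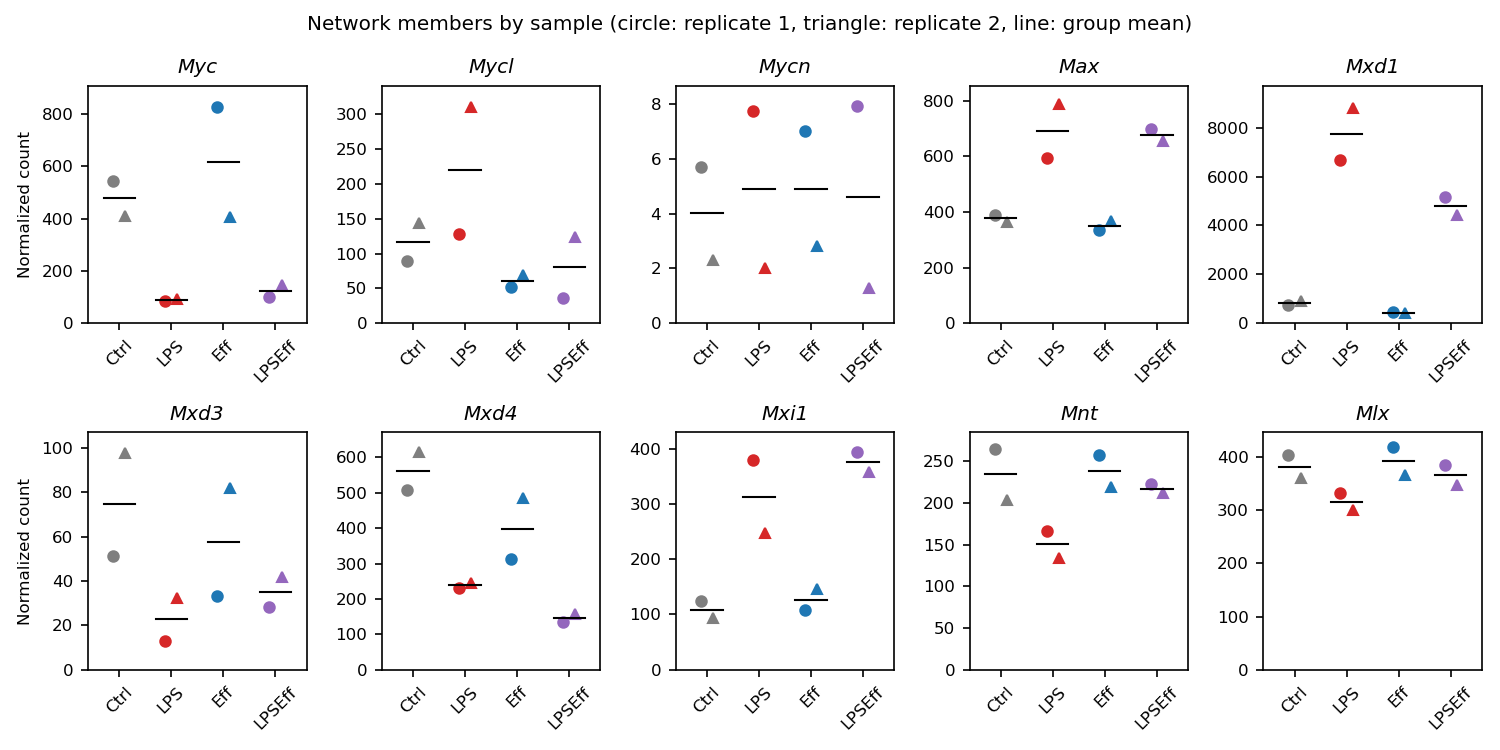
Normalized counts (vertical axes, linear, each with its own range) of the 10 members in the 4 groups, with a circle for replicate 1, a triangle for replicate 2 and a line at the group mean. Mxd1 stands at 4442 or more in the stimulated samples and at 926 or less in the others, and Myc at 147 or less against 406 or more.

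The difference between the LPS/IFNγ effects of efferocytic and naïve Mϕ was tested as an interaction, and no member passed (limma, 0 of 9 members at an unadjusted p under 0.05 against 1.91% of all genes, adjusted p = 0.9999 for each). None of the 16309 genes passed by limma, edgeR or DESeq2, with 311, 369 and 244 genes at an unadjusted p under 0.05. With the replicate block no gene passed either, and 1 member, Mxd3 (interaction 1.15 on the log2 scale, SE 0.42), had an unadjusted p under 0.05 (limma adjusted p = 0.659), as did 6.45% of all genes. For Myc the interaction was 0.14 (95% interval -0.99 to 1.28) and for Mxd1 0.24 (95% interval -0.45 to 0.93), intervals that leave the size of any difference between the effects wide.

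To compare levels between genes, counts were divided by the summed length of the gene's exons, which gives normalized counts per kb. In Ctrl the order of the group means was Mlx (179 per kb), Myc (175), Mxd1 (113) and Max (87.5), and the ranges of Mlx and Myc overlapped. In LPS it was Mxd1 (1058 per kb), Max (161), Mlx (148) and Mycl (52.1), where Max and Mlx overlapped, and Myc stood at 33.0. In Eff, Myc (226 per kb) and Mlx (184) led and overlapped. In LPSEff, Mxd1 (655 per kb), Mlx (172) and Max (157) led, and the lower Mlx sample (162.7) barely cleared the higher Max sample (162.3).

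Among the mRNAs of the 8 possible partners of MAX in the list, summed per kb, Mxd1 took 21.4% and 26.9% in Ctrl and 83.6% and 85.3% in LPS. Eff samples read 12.6% and 15.3% and the LPSEff samples 80.6% and 74.6%. The share of the MYC family was 47.6% and 39.5% in Ctrl, 5.85% and 7.68% in LPS, and, among efferocytic Mϕ, 64.7% and 44.9% in Eff and 5.42% and 10.3% in LPSEff. With Mxd1 left out of the sum, the MYC family share was 60.6% and 54.1% in Ctrl and 35.7% and 52.2% in LPS. The Eff samples then read 74.0% and 53.0% and the LPSEff samples 27.9% and 40.6%. Without Mxd1 the share thus still lay lower in each stimulated group than in its unstimulated counterpart, by a smaller step. Myc itself fell, and among the other repressors Mxi1 rose and Mxd4 fell. The ratio of Mxd1 to Myc counts, which needs no scaling between samples, was 1.34 and 2.25 in Ctrl and 77.1 and 94.4 in LPS. The Eff samples stood at 0.545 and 1.02 and the LPSEff samples at 50.8 and 30.2. In naïve as in efferocytic Mϕ these ratios did not overlap between stimulated and unstimulated samples, and both efferocytic groups lay below their naïve counterparts. With 2 samples per group, a two-sided exact permutation test cannot go below p = 0.333, and none is given. Summed per kb, all partners stood at 5.16 and 5.54 times Max in Ctrl, 7.92 and 7.70 in LPS, and, among efferocytic Mϕ, 6.32 and 4.33 in Eff and 5.37 and 5.35 in LPSEff. These are mRNA levels, and proteins were not measured in these samples.

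**Figure D2:**
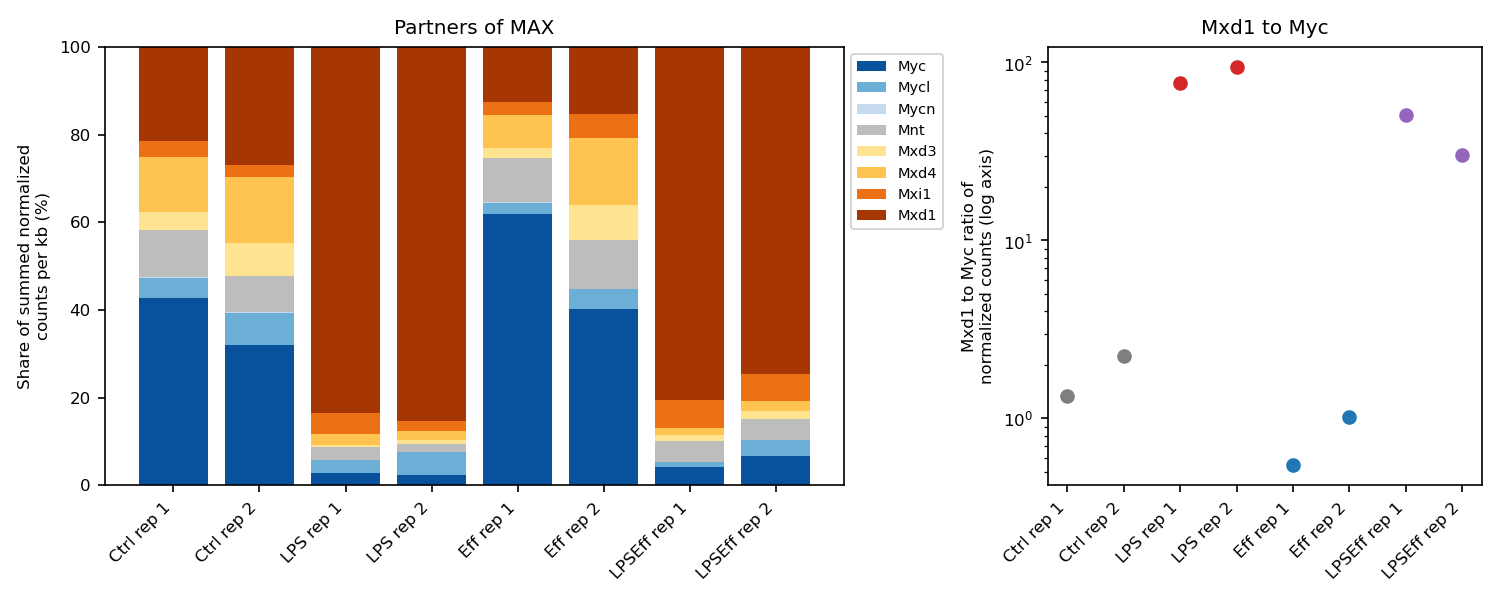
Left, share (%) of each MAX partner in the summed normalized counts per kb of the 8 partners, a bar per sample. Right, ratio of Mxd1 to Myc normalized counts per sample on a log axis, which lies between 0.545 and 2.25 without and between 30.2 and 94.4 with LPS/IFNγ.

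Efferocytosis alone (Eff vs Ctrl) moved no member past the threshold (limma, 0 of 9, 1 at an unadjusted p under 0.05), where 0.251% of all genes passed and 6.13% had an unadjusted p under 0.05. edgeR also called 0 members (0.0858% of all genes) and DESeq2 called 1, Mxd1 (1.30% of all genes). The mean of Mxd1 was 1.91-fold lower in Eff than in Ctrl (log2 difference -0.92, SE 0.21, limma adjusted p = 0.236, edgeR 0.213, DESeq2 0.0132). With the replicate block Mxd1 passed as lower (limma adjusted p = 0.0192), when 2.67% of all genes passed, 0.975% as lower. The log2 differences of Mxd4 (-0.52, SE 0.25) and Mycl (-0.90, SE 0.61) did not pass in either design. The Myc difference was 0.29 (95% interval -0.51 to 1.10), that of Max -0.10 (-0.55 to 0.34) and that of Mnt 0.03 (-0.49 to 0.55).

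Among stimulated Mϕ (LPSEff vs LPS), no member passed either (limma, 0 of 9, 4 at an unadjusted p under 0.05), where 0.773% of all genes passed and 10.3% had an unadjusted p under 0.05. edgeR (0.773% of all genes) and DESeq2 (2.40%) called 0 members, with 3 at an unadjusted p under 0.05 in each. With the replicate block 3 members passed as lower, when 6.97% of all genes passed, 2.65% as lower. These were Mycl (log2 difference -1.57, SE 0.30, limma adjusted p = 0.0138), Mxd4 (-0.70, SE 0.17, 0.0337) and Mxd1 (-0.68, SE 0.17, 0.0395), and without the block their limma adjusted p were 0.419, 0.36 and 0.27. In means, Mycl was 2.74-fold, Mxd4 1.63-fold and Mxd1 1.62-fold lower in LPSEff than in LPS. The log2 differences of Mnt (0.53, SE 0.22, limma adjusted p = 0.463), Myc (0.44, SE 0.35, limma adjusted p = 0.772) and Mlx (0.21, SE 0.18, limma adjusted p = 0.792) did not pass. Each of the 4 comparisons shares a group of samples with the ones beside it, so that they are not independent of each other.

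Fibroblast marker mRNA moved with both efferocytosis comparisons. Of 11 fibroblast markers tested, 5 rose in Eff vs Ctrl (median log2 difference 4.18) and 6 in LPSEff vs LPS (4.43, limma). These are 45.5% and 54.5% of the markers, where 0.215% and 0.730% of all genes passed as higher. The NIH-3T3 cells are mouse cells whose mRNA is counted on the same genes. All 6 tested dendritic markers lay below 0 in both comparisons (medians -0.52 and -0.81), with none called without the replicate block. With the block 1 passed as lower in Eff vs Ctrl, Dpp4 (limma adjusted p = 0.044). In LPSEff vs LPS 2 did, Flt3 (limma adjusted p = 0.00863) and Ccr7 (0.0436). Of all genes, 0.975% and 2.65% passed as lower there. The part of either cell type in the lower Mxd1, Mxd4 and Mycl values was not tested.

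**Figure D3:**
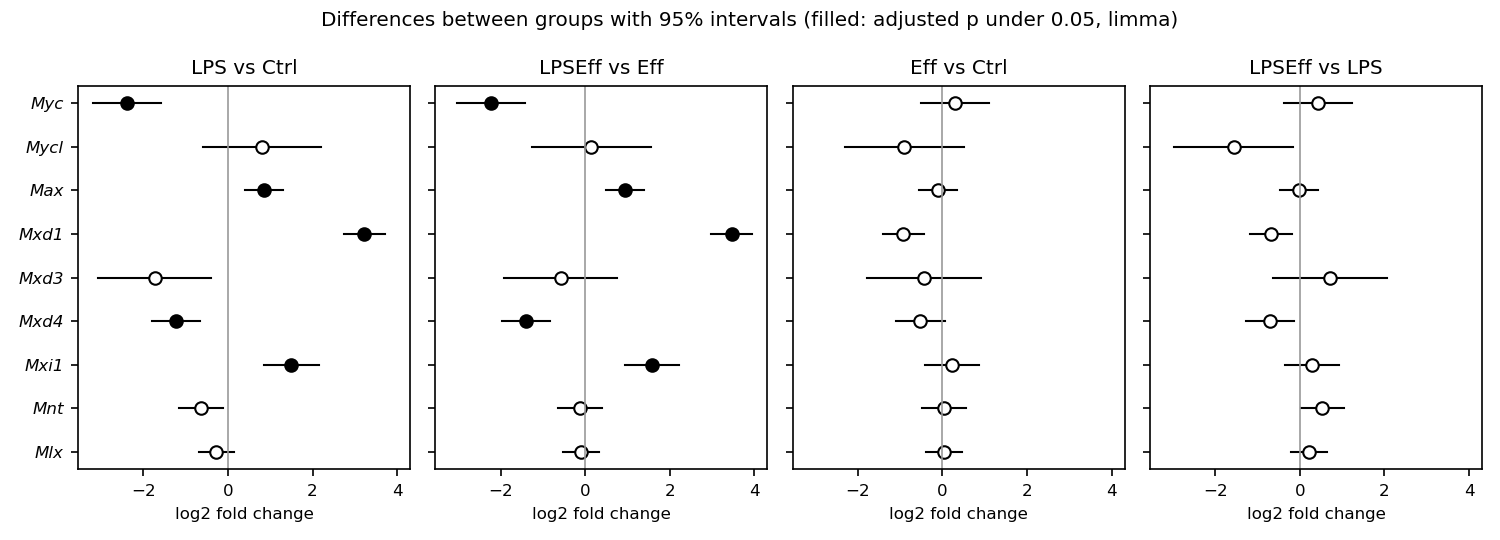
Log2 fold change (horizontal axes) of the 9 tested members in the 4 comparisons, with 95% intervals from limma and filled points where the adjusted p was under 0.05. The 5 filled points in each stimulation comparison are Myc, Max, Mxd1, Mxd4 and Mxi1, and the efferocytosis comparisons hold no filled point.

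The transcripts that MYC dimers are known to activate, a list of 56 genes for ribosome assembly, nucleotide synthesis, cell cycle entry and metabolism, were read in the same fit. Of the 54 tested, 35 fell and 3 rose on stimulation of naïve Mϕ, with a median log2 fold change of -1.19 against -0.01 for all tested genes. These calls are 70.4% of the 54, against 24.0% of all genes, 11.6% as lower and 12.4% as higher. Srm, spermidine synthase, fell by 2.93 on the log2 scale from a mean of 408 to 53.4 normalized counts (SE 0.36, limma adjusted p = 0.00102). Dkc1, the pseudouridine synthase dyskerin, fell by 2.86 (SE 0.26, limma adjusted p = 0.000266), and E2f2, a cell cycle transcription factor, fell by 2.58 (SE 0.25, limma adjusted p = 0.000346). Ccnd2, the D-type cyclin that MYC induces, went the other way and rose by 2.91 (SE 0.47, limma adjusted p = 0.00328). The other two that rose, chosen for mention after their values were seen, were the glycolytic Hk2 (1.99) and the mitochondrial folate enzyme Mthfd2 (1.01). In efferocytic Mϕ, 29 fell and 3 rose (median -0.86 against 0.01). This is 59.3% against 19.7% of all genes, 8.95% as lower and 10.7% as higher.

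In Eff vs Ctrl none of the 54 passed (limma, edgeR and DESeq2, with 1, 2 and 0 at an unadjusted p under 0.05), and 43 lay above 0, with a median of 0.16 against -0.01. In LPSEff vs LPS none passed by limma or edgeR, with 24 and 23 at an unadjusted p under 0.05. DESeq2 called 4, where it called 2.40% of all genes. Here 46 lay above 0 with a median of 0.51 against -0.0025 for all tested genes, of which 10.3% had an unadjusted p under 0.05 (limma). With the replicate block 17 of the 54 passed as higher and 1 as lower in LPSEff vs LPS, as did 4.32% and 2.65% of all genes. Among the higher were Dkc1 (log2 difference 1.43, limma adjusted p = 0.0661 without and 0.00396 with the block) and Srm (1.02, 0.362 without and 0.0197 with the block). The genes MYC is known to repress went the opposite way: of 7, 5 rose on stimulation in naïve Mϕ (median 1.45) and 5 in efferocytic Mϕ (1.60). Each count is 71.4% of the list, where 12.4% and 10.7% of all genes passed as higher. With equal totals 4 and 3 rose, against 8.71% and 7.46% of all genes. With the replicate block 6 and 7 rose, against 20.5% and 19.0%. The 5 called in naïve Mϕ were the cell cycle inhibitors Cdkn1a (1.42, SE 0.24, limma adjusted p = 0.00422) and Cdkn2b (1.64, SE 0.29), the stress genes Gadd45a (2.44, SE 0.49) and Ndrg1 (1.45, SE 0.24), and Cdkn1b (1.02), named after its value was seen. The E-box was found in 8 of the 54 windows of the activated targets, 14.8% against 7.83% of all windows, and in 0 of the 7 of the repressed genes.

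**Figure D4:**
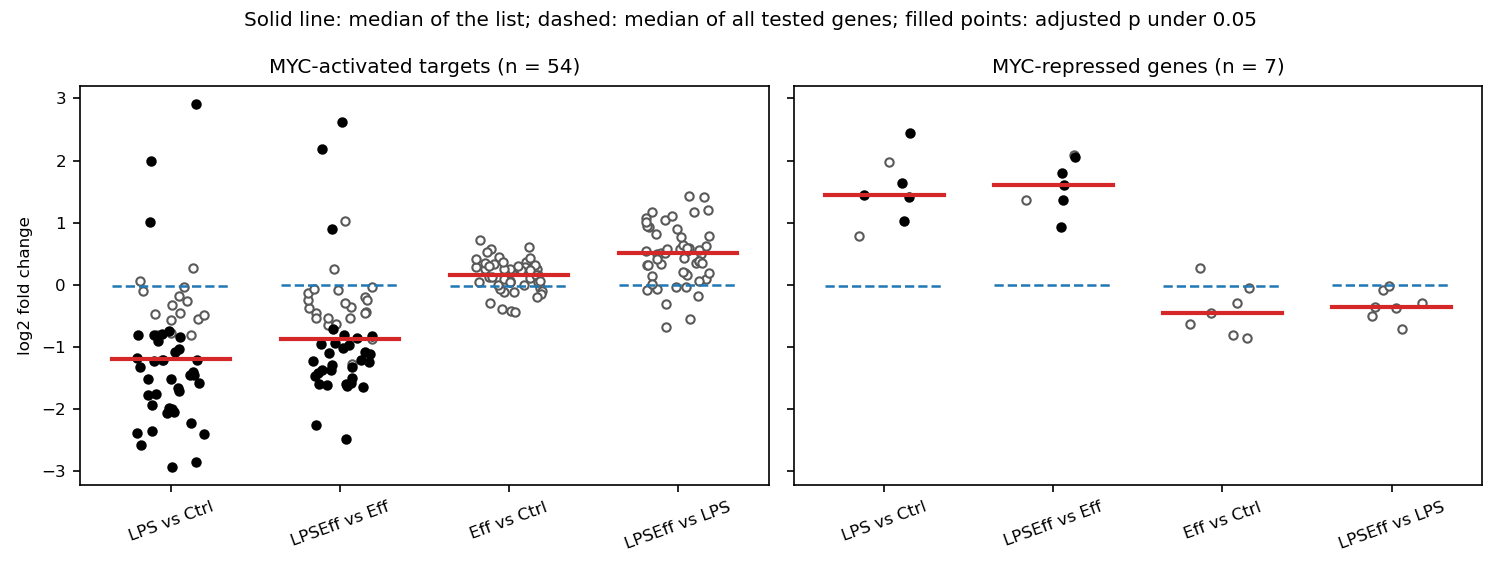
Log2 fold change (vertical axis) of the 54 MYC-activated targets and the 7 MYC-repressed genes in the 4 comparisons, each gene a point, filled where the limma adjusted p was under 0.05. Solid lines mark the medians of the lists (-1.19 and 1.45 in LPS vs Ctrl) and dashed lines those of all tested genes.

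Of 10 proliferation markers, 8 fell on stimulation in naïve Mϕ (median -1.28) and 6 in efferocytic Mϕ (-1.37). These are 80.0% and 60.0% of the list, where 11.6% and 8.95% of all genes passed as lower. In the efferocytosis comparisons, where the medians of the activated targets were 0.16 and 0.51, those of the proliferation markers were -0.25 and -0.19, with 0 called by limma and 2 called as lower with the replicate block in LPSEff vs LPS. Their summed normalized counts were 8679 and 9242 in Ctrl and 4863 and 5463 in LPS. Eff samples lay at 6975 and 7393 and the LPSEff samples at 3673 and 4806. The part of cell cycling in the target list was not tested.

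Of 13 coactivators of MYC, 3 fell and 1 rose on stimulation of naïve Mϕ, 30.8% against 24.0% of all genes. The histone acetyltransferase Kat2a fell by 1.74 on the log2 scale (SE 0.26, limma adjusted p = 0.0024), Wdr5, which anchors MYC on chromatin, fell by 1.53 (SE 0.19, 0.000998), and the cofactor Hcfc1 fell by 0.69 (SE 0.18, 0.0279). Ep400, the ATPase of the TIP60 complex, rose by 1.22 (SE 0.17, limma adjusted p = 0.00167). In efferocytic Mϕ the counts were also 3 lower and 1 higher, 30.8% against 19.7%. Of 15 members of the SIN3 and NCOR corepressor complexes through which MXD proteins act, 2 rose and 0 fell in naïve Mϕ, namely Sap30 (1.48, SE 0.21, limma adjusted p = 0.0021) and Sin3b (0.80, SE 0.17, 0.0125). In efferocytic Mϕ 1 rose and 1 fell. Both counts are 13.3% of the list, below the 24.0% and 19.7% over all genes. With the replicate block the corepressor calls were 4 higher and 1 lower in naïve and 4 higher and 2 lower in efferocytic Mϕ, where 41.2% and 37.0% of all genes passed, and with equal totals 1 higher and 4 lower, and 1 higher and 6 lower. The coactivator calls in efferocytic Mϕ became 2 higher and 5 lower with the block.

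Of 17 regulators of MYC protein turnover, 6 fell and 1 rose in naïve Mϕ, and 3 fell in efferocytic Mϕ. These calls are 41.2% of the list in naïve Mϕ, against 24.0% of all genes, and 17.6% in efferocytic Mϕ, against 19.7%. With the replicate block 8 fell and 2 rose in naïve and 7 fell and 2 rose in efferocytic Mϕ. There 41.2% and 37.0% of all genes passed. With equal totals 10 fell and 0 rose in naïve, and 9 fell and 0 rose in efferocytic Mϕ. In that setting 26.5% and 26.7% of all genes passed as lower. The ubiquitin ligase subunit Skp2 fell by 1.66 on the log2 scale (SE 0.33, limma adjusted p = 0.00835), and the mitotic kinases Aurka and Plk1 fell by 1.54 (SE 0.35, 0.0154) and 1.43 (SE 0.41, 0.0374), both of which also belong to dividing cells. Pim1, a kinase that stabilizes MYC, rose by 1.51 (SE 0.38, limma adjusted p = 0.0241). None of the coactivators, corepressors or turnover genes passed in Eff vs Ctrl or LPSEff vs LPS by limma, edgeR or DESeq2, and limma gave 2 coactivators an unadjusted p under 0.05, in LPSEff vs LPS. With the replicate block Kat2a passed there as higher (log2 difference 0.87, limma adjusted p = 0.0158), and so did the corepressor subunit Arid4a as lower (-0.80, limma adjusted p = 0.0343), named after its value was seen.

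Mga, the largest MAX partner, differed by -0.21 and Mlxip, the MONDO factor that pairs with MLX, by 0.11 on stimulation of naïve Mϕ, neither of which passed, and Mlxipl was too low to test. Of 4 known MONDO targets, Txnip, an arrestin-like inhibitor of glucose uptake, fell by 2.01 (SE 0.46, limma adjusted p = 0.0161) and the Krüppel-like factor Klf10 fell by 2.62 (SE 0.28, 0.000529), while Arrdc4, a relative of Txnip, rose by 1.38 (SE 0.18, 0.00123) and Pklr, a pyruvate kinase, differed by 0.42 without passing. The calls are 75.0% of the list, against 24.0% of all genes, and in efferocytic Mϕ also 75.0%, against 19.7%. Txnip and Arrdc4, which share this regulation, moved in opposite directions, in efferocytic Mϕ as well (-2.27 and 0.86, limma adjusted p = 0.011 and 0.012). With equal totals the efferocytic call of Arrdc4 was lost, and 0 MONDO targets passed as higher there, where 7.46% of all genes did.

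Outside the network, the profiles most like those of 3 members were found by the root mean square difference of centred log2 values over the 8 samples. For Mxd1 these were Traf1 (0.106), Adora2a (0.218) and Gm13571 (0.253). For Max they were Kdm5c (0.0661), Coa5 (0.0823) and Ube2f (0.0946), and for Myc Ankrd13b (0.208), Tbc1d2 (0.258) and Cdc6 (0.267).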

How the data were processed

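Total RNA libraries of 8 BMDM samples (4 groups, 2 each) were rRNA-depleted and sequenced single end. The authors trimmed reads with cutadapt, filtered out rRNA with Bowtie2, aligned the rest with STAR (mm39) and assigned reads to genes with htseq-count in default mode. Tool versions are not given in the sources used here, and the sources differ on whether differentiation took 6 or 7 days. The deposited values are a signal per gene, the read count divided by a size factor per sample. The smallest nonzero value of a sample was taken as 1 read (0.578 to 1.90 normalized counts), and 100% of values were whole multiples of it (tolerance 0.01), which gave the recovered reads.

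limma (3.58.1, R 4.3.3) with a trend was fitted to log2(normalized count + 1), which understates changes of low genes. The fit held all 8 samples and the 16309 genes whose mean reached 10, with 4 residual degrees of freedom. The threshold was an adjusted p under 0.05 (Benjamini-Hochberg over all tested genes). On recovered reads, edgeR (4.0.16) called 3991 genes in LPS vs Ctrl, 3509 in LPSEff vs Eff, 126 in LPSEff vs LPS and 14 in Eff vs Ctrl. In the same order DESeq2 (1.42.0) called 3954, 3519, 368 and 204, and limma called 3910, 3213, 126 and 41. The limma, edgeR and DESeq2 fits were tested on simulated counts, for LPS vs Ctrl and Eff vs Ctrl. Alternatives were other pseudocounts, filters and scalings, a replicate block, the groups compared alone, and leaving out each sample.

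The replicate numbers come from the sample titles, and no source says that same-numbered samples share a preparation. Deviations from the group means correlated between all 6 pairs of groups (r from 0.404 to 0.595, computed across genes that are not independent). The block is therefore given where it changed the call of a member. For the gene lists it is given for some counts only, and it changed others as well.

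Members and lists were chosen with earlier results of these data known. Named genes were all members, the 4 largest called changes of each pathway list in LPS vs Ctrl, all genes of lists of up to 4, marker genes only where a result turned on them, and the 3 profiles nearest to Myc, Max and Mxd1. The symbol Phb, of the MYC-activated targets, was not matched, and Mir17hg was under the filter. Gene names and positions are from GENCODE M39 (GRCm39), which matched 54749 identifiers, and sequences are from the GRCm39 genome.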

Additional observations from a re-analysis of the deposited data

How the results depend on the processing

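The 5 calls in naïve and the 5 in efferocytic Mϕ on stimulation kept their directions under every alternative run, and no member passed the interaction under any. The replicate block called 1 member instead of 0 in Eff vs Ctrl, 3 instead of 0 in LPSEff vs LPS, and 18 MYC-activated targets instead of 0 in LPSEff vs LPS. It also raised the LPS vs Ctrl members from 5 to 7 and changed no other member's call. DESeq2 called 6 members in LPS vs Ctrl, with Mxd3 added as lower, where it called 24.2% of all genes. It also called 1 member in Eff vs Ctrl and 4 targets in LPSEff vs LPS, and equal totals called 1 target in LPSEff vs LPS. Leaving out each sample in turn gave 2 to 5 members in LPS vs Ctrl (2 without Ctrl replicate 2), 4 to 5 in LPSEff vs Eff and 0 in the others. For the targets it gave 27 to 36 in LPS vs Ctrl and 13 to 32 in LPSEff vs Eff, with 13 without Eff replicate 1 and 14 without LPSEff replicate 1, against 32 with all samples, while the share of all genes called dropped to 9.61% and 9.77%. With a sample left out, its partner is assumed to vary like the other groups. Some differences that had not passed changed sign. Mycl in LPSEff vs Eff was -0.30 with equal totals, and Max in LPSEff vs LPS was 0.015 with quantile normalization. Across left-out samples, the LPSEff vs Eff log2 difference ran from -0.74 to 1.03 for Mycl, -1.22 to 0.052 for Mxd3 and -0.19 to 0.0023 for Mlx. In Eff vs Ctrl it ran from -0.22 to 0.81 for Myc, -1.07 to 0.20 for Mxd3, -0.16 to 0.22 for Mnt and -0.061 to 0.14 for Mlx, and in LPSEff vs LPS from -0.22 to 0.19 for Max and -0.018 to 0.60 for Mxi1. The cause was not tested for these. Groups of 2 samples allow no test for outlying samples, and the depth leaves Mycn unmeasured.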

Other observations

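Neutrophil marker sums were 643 to 2176 normalized counts over the 8 samples. Of the 5 neutrophil markers tested, 2 rose on stimulation in naïve Mϕ (median log2 fold change 1.18), 40.0% against 12.4% of all genes as higher. In efferocytic Mϕ 1 rose (median 0.59), 20.0% against 10.7% of all genes as higher. These were S100a8 (0.98, SE 0.17, limma adjusted p = 0.00427) and Camp (2.52, SE 0.65, limma adjusted p = 0.0259) in naïve Mϕ and Camp (2.28, limma adjusted p = 0.0431) in efferocytic Mϕ, both named after their values were seen. In Eff vs Ctrl (median 0.31) S100a8 passed as higher (1.24, SE 0.17, limma adjusted p = 0.0402), 20.0% of the list against 0.215% of all genes. In LPSEff vs LPS (median -0.28) 0 passed. With the replicate block S100a8 passed there as higher (0.77, limma adjusted p = 0.00882), as did 4.32% of all genes. Some members differed between same-numbered samples in the same direction in all 4 groups: Mycl, Mxd3 and Mxd4 were higher in replicate 2, and Mnt and Mlx in replicate 1. Mycn was also higher in replicate 1 in 4 of 4 groups, at 1 to 10 reads per sample.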
